A study of Mus musculus with 12 samples.

Results

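Pth1r encodes the receptor for parathyroid hormone and parathyroid hormone-related protein, and its transcript was followed in the inguinal fat pad (white adipose tissue, WAT) and in brown fat (BAT) of mice with and without the mitochondrial calcium uniporter gene Mcu in adipose tissue. It is 1 of the 52550 genes of the deposited count table and was chosen by its lower level in the BAT of the knockout mice. The BAT knockout contrast is therefore only described, and its p-values support nothing about the gene. The study has 12 poly(A) RNA-seq libraries in 4 groups of 3. The control libraries came from mice labelled Mcu fl/fl, which carry the floxed gene, and the knockout libraries from mice labelled Mcu fl/fl AKO, in which the same floxed gene was deleted in adipose tissue. Each genotype is represented in both depots, and the design text states that the mice were on a high-fat diet and that the knockout mice were made by CRISPR/Cas9 technology. Sex, age, strain background, the deleted exon and the promoter that drives the deletion are left unstated in the labels. Libraries are numbered 1 to 3 within a group and are not stated to come from separate animals, so a p-value here reflects only how much the libraries of a group vary, which may be technical.

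Pth1r is a class B G protein-coupled receptor that binds parathyroid hormone, the endocrine regulator of blood calcium, and parathyroid hormone-related protein, a locally made peptide. Bound receptor activates Gs, adenylyl cyclase and protein kinase A, and can also activate Gq and phospholipase C. Its best known sites are bone and kidney; in fat, both hormones have been linked to lipolysis and to thermogenic gene expression, including in models of cachexia.

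The gene (ENSMUSG00000032492) lies on the minus strand at chr9:110722085-110747145 of mm10 and spans 25061 bases, with 2925 bases of exon over its 6 GENCODE M21 transcripts. The deposited FPKM values imply the same exon length of 2925 bases. Its exons share 95 bases with Myl3, a myosin light chain gene of muscle on the opposite strand, and no source used here gives the strand setting of the authors' counting. RefSeq lists 3 transcription starts. The 250 bases before the first and the second are shown because Pth1r transcripts begin at separate promoters, which gene-level counts cannot separate. Both sequences are from GRCm38.p6, read 5′ to 3′ on the minus strand, and capitals mark GC boxes (GGGCGG or its complement CCGCCC).
Start 1, chr9:110747146-110747395: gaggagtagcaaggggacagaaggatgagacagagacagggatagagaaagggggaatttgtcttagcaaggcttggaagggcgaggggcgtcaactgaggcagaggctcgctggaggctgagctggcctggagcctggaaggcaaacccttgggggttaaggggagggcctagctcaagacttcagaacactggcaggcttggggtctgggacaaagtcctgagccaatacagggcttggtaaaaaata
Start 2, chr9:110743687-110743936: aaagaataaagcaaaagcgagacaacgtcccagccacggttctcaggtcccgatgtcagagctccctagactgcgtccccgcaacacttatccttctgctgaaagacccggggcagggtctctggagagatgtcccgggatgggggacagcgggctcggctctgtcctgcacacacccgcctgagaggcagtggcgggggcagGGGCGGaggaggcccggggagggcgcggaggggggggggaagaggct
Neither window overlaps an annotated exon. The window of start 1 had a GC content of 56% and 3 CpG dinucleotides, that of start 2 had 65.6% and 16, and that of start 3 (chr9:110742611-110742860, 109 bases of it in a Pth1r exon) had 70.4% and 22. The median over 32851 mouse promoters was 52.4% GC and 6 CpG. Start 1 held no GC box, start 2 held 1 and start 3 held 4, against 32.7% of all promoters with at least 1 on either strand. No window held TATAAA (12.4% of promoters). Start 1 held 1 match to TGACG, a core motif of the cAMP response element (17.8% of promoters), and the other starts held none. Among GENCODE transcripts, Pth1r-205 begins at start 1 and Pth1r-202 at start 2. A match of letters is not evidence of a bound site.

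The libraries held 15692588 to 18967159 counts. Mcu, the targeted gene and a check of the labels, had a mean of 26.2 ± 2.73 CPM (reads of a gene per 1000000 counts, scaled by trimmed mean of M-values; SD, n = 3) in BAT controls and 10.7 ± 3.21 in BAT AKO libraries, which is 40.8% of control. The WAT means were 18.8 ± 0.446 CPM without and 11.2 ± 1.28 CPM with the deletion, or 59.6%. The AKO libraries were below all controls in both depots, and with edgeR's quasi-likelihood test the Benjamini-Hochberg adjusted p was 0.202 in BAT and 0.080 in WAT. The 6 brown adipocyte markers summed to 6599 to 8474 CPM in BAT and to 21.01 to 58.57 CPM in WAT, and the 6 general adipocyte markers to 19100 to 26600 CPM in every library. Counts of skeletal muscle markers made up at most 0.297% of 9 libraries, but 1.19% of WAT control 1, 2.1% of WAT AKO 2 and 1.4% of BAT AKO 2. In bulk tissue, fewer cells of a type and less RNA per cell cannot be told apart.

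Pth1r was read at 702 to 781 counts in each BAT control library, 254 to 362 in BAT AKO, 226 to 398 in WAT control and 166 to 216 in WAT AKO. Its normalised level was 56.6, 49.8 and 52.1 CPM in BAT controls 1 to 3 (52.8 ± 3.49) and 25.2, 18.3 and 21.9 CPM in the BAT AKO libraries (21.8 ± 3.45). In WAT controls it was 12.7, 10.9 and 20.5 CPM (14.7 ± 5.06), and in WAT AKO libraries 8.93, 8.34 and 9.93 CPM (9.07 ± 0.804). The order of group means was therefore BAT control, BAT AKO, WAT control, WAT AKO. BAT AKO and WAT control are neighbours that overlap, since the highest WAT control library (20.5 CPM) lay above the lowest BAT AKO library (18.3 CPM); every other pair of groups was separate. WAT control was the most variable group, with a coefficient of variation of 34.5% against a counting error of 5.01% to 6.65% per library. In BAT controls the coefficient of variation was 6.61%, with a counting error of 3.58% to 3.77%.

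**Figure D1:**
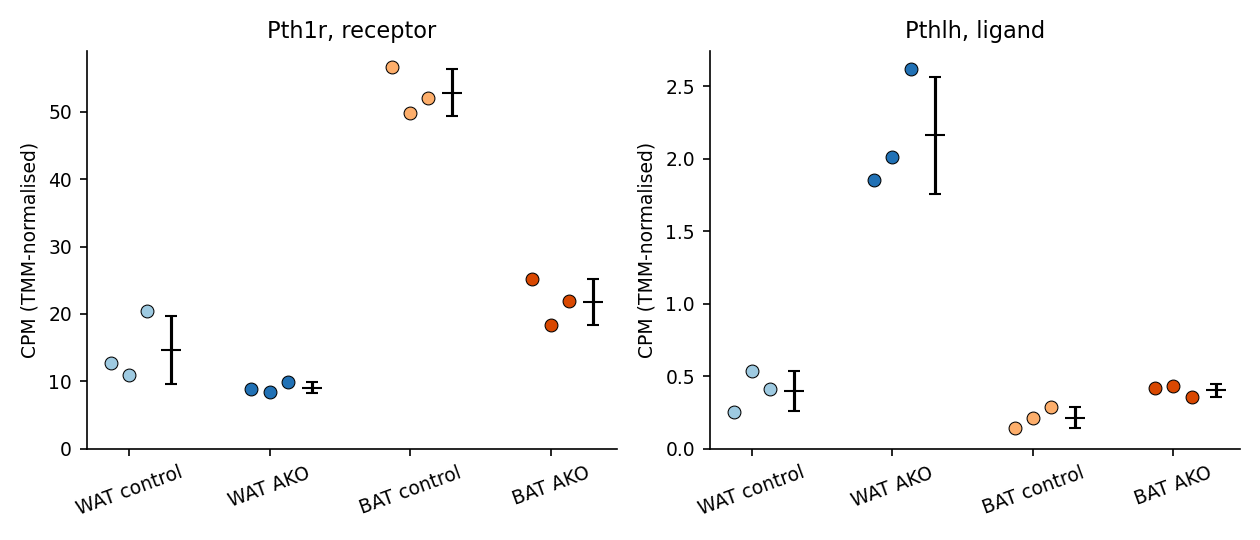
Levels of Pth1r (left) and of its ligand gene Pthlh (right) in CPM on linear axes from 0, one point per library, with the group mean and SD (n = 3) as a bar beside the points. Pth1r is highest in BAT controls (49.8 to 56.6 CPM) and lowest in WAT AKO (8.34 to 9.93 CPM), and Pthlh is highest in WAT AKO (1.86 to 2.62 CPM).

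Per length, Pth1r stood at 15.9 ± 1.11 FPKM in BAT controls, 6.40 ± 0.968 in BAT AKO, 5.51 ± 1.89 in WAT controls and 3.76 ± 0.514 in WAT AKO (SD, n = 3). These FPKM values were higher than those of 86.7% to 88.2% of the genes detected in each BAT control library. The share was 71.7% to 76.9% in BAT AKO libraries, 65.7% to 75.1% in WAT controls and 61.1% to 63.6% in WAT AKO libraries. Pth1r was thus a well detected gene in all 12 libraries.

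In BAT, the contrast on which the gene was selected, Pth1r in AKO libraries was at 41.3% of control. The log2 difference was -1.27 (SE 0.12), and no AKO library reached the lowest control. It was 1 of 4 genes called lower in this contrast, with Rpl29, Trib1 and Rspo4, while 7 were called higher, so 0.0771% of the 14265 genes tested passed an adjusted p of 0.05. Groups that did not overlap with AKO lower were found for 10.3% of the genes tested, and with AKO higher for 8.35%. An unadjusted p under 0.05 was found for 1942 of the 14265 genes. Leaving out single libraries gave log2 differences of -1.36 to -1.18 for Pth1r, with an adjusted p under 0.05 in 1 of 6 fits by edgeR. Leaving out the most muscle-rich library of each group gave -1.12 (adjusted p 0.147 by edgeR). These values chose the gene and support nothing further.

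In WAT, a contrast the selection did not use, Pth1r in AKO libraries was at 61.8% of control and did not pass the test. The log2 difference was -0.70 (SE 0.25, 95% interval -1.31 to -0.09), with a p of 0.031 and an adjusted p of 0.183 in edgeR's quasi-likelihood test. All 3 AKO libraries lay below all 3 controls, a pattern that 15.6% of the 15915 genes tested shared in this direction and 14.9% in the other. The exact two-sided permutation p of 0.1 is the smallest that 3 against 3 can give. In this contrast 3 genes were called, all higher, or 0.0189% of those tested, and 3597 genes had an unadjusted p under 0.05. WAT control 3 carried much of the difference: without it the log2 value was -0.38 and the adjusted p 0.347. The difference was -0.42 on the log2(FPKM + 1) scale and -0.50 on the log2(FPKM + 0.1) scale. Whether the change of Pth1r in WAT differs from that in BAT was not tested.

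WAT control 3 also stood apart in its vascular markers. The summed level of 11 smooth muscle and pericyte markers was 2303 CPM there, 1401 and 1329 CPM in WAT controls 1 and 2, and 1055 to 1156 CPM in WAT AKO libraries. The sum of 7 endothelial markers was 1658 CPM in WAT control 3, 924 and 850 CPM in controls 1 and 2, and 668 to 928 CPM in WAT AKO libraries. edgeR's quasi-likelihood test called none of the 10 smooth muscle and pericyte markers tested in WAT, and DESeq2 called Cspg4 and Mcam. All 10 had negative log2 differences, with a median of -0.41; the median over all genes was 0.00. Adipose progenitor markers summed to 1008 to 1588 CPM in WAT controls and 868 to 915 CPM in WAT AKO libraries, with 0 of 7 called by edgeR, all 7 negative and a median of -0.45; DESeq2 called Cd34 and Lum. The 4 B lymphocyte markers summed to 1.39 CPM in WAT control 3, 1.84 in control 1, 227 in control 2 and 276 to 644 CPM in WAT AKO libraries, so the 4 WAT libraries with the highest sums were the 4 with the lowest Pth1r. The part of these cells in the WAT values of Pth1r was not tested. In BAT, the smooth muscle and pericyte sum was 1261 to 1432 CPM in controls and 1314 to 1511 CPM in AKO libraries, with overlap. BAT endothelial markers summed to 1418 to 1686 CPM in controls and 1175 to 1469 CPM in AKO libraries, with 0 of 7 called by edgeR, 5 negative and a median log2 difference of -0.12; DESeq2 called Cldn5. BAT progenitor markers summed to 392 to 510 CPM in controls and 345 to 482 CPM in AKO libraries, with overlap. Of these 7 markers edgeR called 0, 4 were positive and 3 negative, with a median log2 difference of 0.12. DESeq2 called Ly6a, with 1683 to 3032 counts in BAT controls and 993 to 1301 in BAT AKO libraries. Macrophage markers summed to 234 to 284 CPM in BAT controls and 174 to 222 CPM in BAT AKO libraries, without overlap. Of these markers 0 of 6 were called by edgeR or DESeq2, 3 had an unadjusted p under 0.05 (1942 of 14265 over all genes), and 5 were negative, with a median of -0.40. Their part in the BAT values of Pth1r was not tested. Bone and cartilage markers, from the tissues where Pth1r is best known, summed to at most 0.788 CPM in any library.

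**Figure D2:**
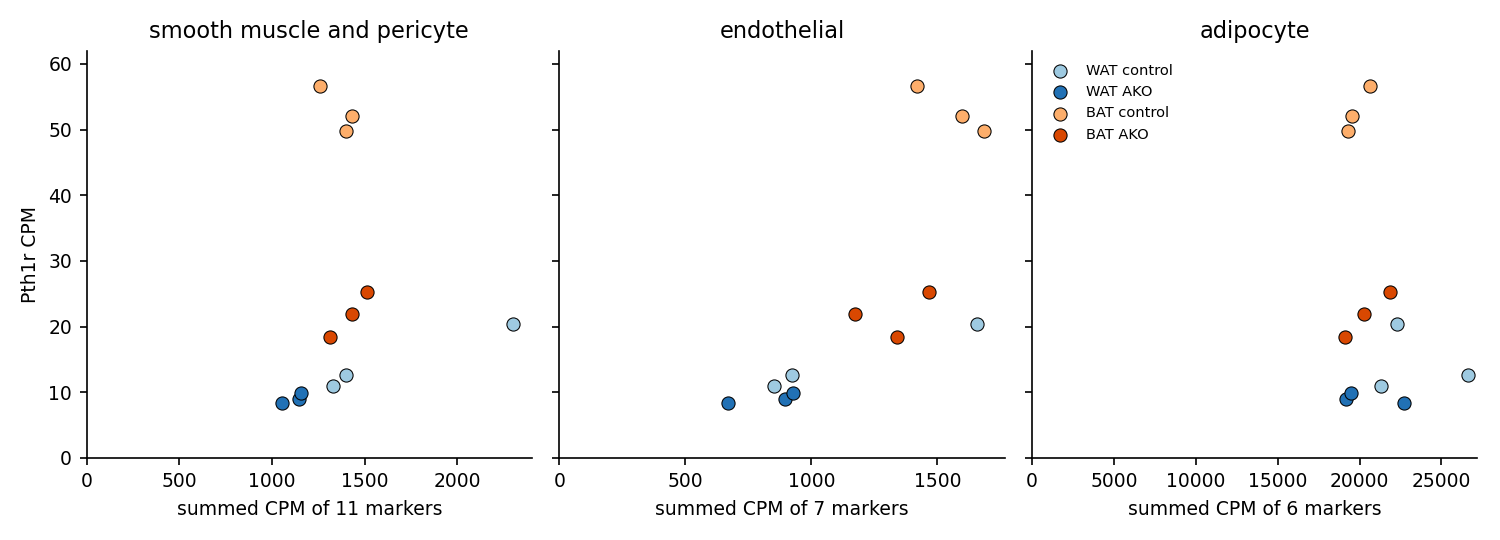
Pth1r level in CPM against the summed CPM of the smooth muscle and pericyte, endothelial and adipocyte markers, one point per library and all axes linear from 0. In BAT the smooth muscle and pericyte sums are 1261 to 1432 CPM in controls and 1314 to 1511 CPM in AKO libraries. The endothelial sums are 1418 to 1686 and 1175 to 1469 CPM, and the adipocyte sums 19280 to 20660 and 19100 to 21850 CPM. The BAT groups have separate Pth1r levels, on which the gene was chosen. WAT control 3 lies apart from the other WAT libraries at 2303 CPM for smooth muscle and pericyte genes.

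Between depots, Pth1r was higher in BAT in both genotypes. In controls the BAT mean was 3.598 times the WAT mean, with a log2 difference of 1.88 (SE 0.23, 95% interval 1.33 to 2.44) and an adjusted p of 0.00081 in edgeR's quasi-likelihood test. In AKO libraries it was 2.40 times, with a log2 difference of 1.35 (SE 0.15, 95% interval 1.00 to 1.69) and an adjusted p of 0.00019. All BAT libraries lay above all WAT libraries of the same genotype. Both tests use BAT libraries that took part in the selection, which favoured high BAT controls and low BAT AKO libraries, so neither is independent of it, and whether the depot difference differs between genotypes was not tested. Depot calls are common: 24.4% of the 15031 genes tested in controls were called higher in BAT and 25.7% lower, and in AKO libraries 28.8% and 30.5% of 15671. The split of calls differed on the FPKM scale, where the scaling, the pseudocount and the test differ together. On the log2(FPKM + 1) scale 26.7% of the calls in controls were higher in BAT, against 48.7% with the main scaling, and 19.4% against 48.5% in AKO libraries, while the median log2 over all genes was -0.25 and -0.37. With relative log expression size factors in edgeR, 49.2% and 48.4% of the calls were higher. On the log2(FPKM + 1) scale the Pth1r difference itself was 1.41 in controls and 0.63 in AKO libraries, below the main values of 1.88 and 1.35. Relative to the medians on that scale, Pth1r was higher in BAT by 1.66 in controls and by 1.01 in AKO libraries. It passed the threshold under every alternative tried.

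Among the ligands, only Pthlh, the gene of parathyroid hormone-related protein, was detected. Pth, the gene of parathyroid hormone itself, and Pth2, the gene of the related peptide TIP39, had 0 counts in all 12 libraries, which allows a level of up to 0.0146 CPM over the 204970802 counts of the series. The other receptor of the family, Pth2r, had 2 counts, both in WAT AKO 3. Limits and intervals from such counts cover counting error only. Pthlh had 24 counts over the WAT controls, 140 over the WAT AKO libraries, 9 over the BAT controls and 17 over the BAT AKO libraries.

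Pthlh was at 0.255, 0.533 and 0.411 CPM in WAT controls and at 1.86, 2.01 and 2.62 CPM in WAT AKO libraries. Every AKO library was above every control, and the mean was 5.41 times as high. The log2 difference of 2.41 (SE 0.34) did not pass the test, with an adjusted p of 0.071 in edgeR's quasi-likelihood test. It passed with DESeq2 (adjusted p 0.000146), without the filter on low counts (0.032), with all 12 libraries in one edgeR fit (0.0077) and without WAT control 2 (0.015). The adjusted p over all alternatives ranged from 0.000146 to 0.299. Epcam, an epithelial marker, moved with it, at 0.436 CPM or less in WAT controls and 1.31 to 1.52 CPM in WAT AKO libraries. The 6 mammary epithelium markers, Epcam among them, summed to 0.103 to 0.775 CPM in WAT controls and 1.61 to 5.82 CPM in WAT AKO. Wap was at 0 in all libraries, and Krt8 and Krt18 did not separate the groups. Krt8 had 1, 1 and 0 counts in WAT controls and 57, 10 and 0 in WAT AKO libraries. Krt18 had 2, 5 and 1 counts in WAT controls and 44, 3 and 2 in WAT AKO libraries. The B lymphocyte marker sums given above were also higher in every WAT AKO library than in every control, and among controls highest in control 2, as Pthlh was. The part of epithelial cells and lymphocytes in the Pthlh value was not tested. In BAT, Pthlh stayed below the filter in the AKO contrast; its 95% exact counting intervals were 0.086 to 0.359 CPM in controls and 0.201 to 0.552 CPM in AKO libraries. Between depots in AKO libraries, Pthlh was lower in BAT, with a log2 difference of -2.32 (SE 0.28, adjusted p 0.00031 by edgeR). Receptor and ligand therefore had opposite depot patterns in AKO libraries.

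Among 15 receptor genes of class B, Pth1r had the highest mean FPKM in both BAT groups. In BAT controls its 15.9 FPKM was followed by Sctr, the secretin receptor, at 3.71 ± 1.18, and Gipr, the receptor of glucose-dependent insulinotropic polypeptide, at 2.16 ± 0.644. In BAT AKO libraries Pth1r remained first at 6.40 FPKM, and its lowest library (5.40 FPKM) was above the highest for Sctr (4.11 FPKM). In WAT controls Adcyap1r1, the receptor of the neuropeptide PACAP, had 7.43 ± 2.46 FPKM against 5.51 ± 1.89 for Pth1r, and their ranges overlapped. In WAT AKO libraries Adcyap1r1 had 17.0 ± 3.00 FPKM, Sctr 5.84 ± 0.378 and Pth1r 3.76 ± 0.514, and these 3 were separate.

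Of the other class B receptors, 5 of 14 passed the filter in BAT and 8 in WAT, and none was called between AKO and control. The median log2 difference was 0.10 in BAT and 0.15 in WAT, against 0.01 and 0.00 over all genes. Sctr, Gipr, Calcrl and Adcyap1r1 had BAT differences of 0.01 to 0.16, and the fifth, Vipr2, one of 0.78 (SE 0.39). In WAT, Adcyap1r1 had 53.8, 26.1 and 55.4 CPM in controls and 97.3, 111 and 72.0 CPM in AKO libraries, a log2 difference of 1.05 (SE 0.32) with an adjusted p of 0.144 by edgeR. Vipr2, a receptor of vasoactive intestinal peptide, had 1.63, 1.55 and 4.73 CPM in WAT controls and 0.352 to 0.460 CPM in AKO libraries, a log2 difference of -2.65 (SE 0.54) with an adjusted p of 0.095. Both pairs of groups were separate, in opposite directions, and neither passed the test. Between depots in controls, 3 of 7 other class B receptors were called, all lower in BAT, as were 25.7% of all genes tested. Adcyap1r1 had a log2 difference of -1.52, Vipr2 of -1.84 and Calcrl, a receptor subunit for CGRP and adrenomedullin, of -0.77.

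**Figure D3:**
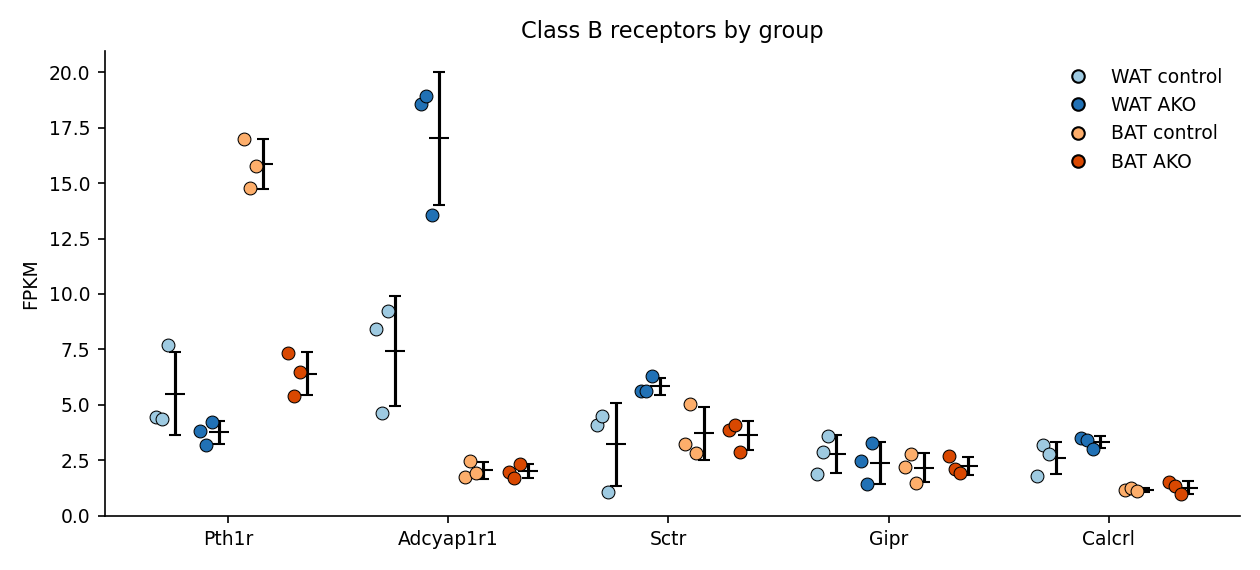
FPKM of Pth1r and the other 4 class B receptors with the highest levels, one point per library by group on a linear axis from 0, with the group mean and SD (n = 3) as a bar. Pth1r leads in BAT controls (14.8 to 17.0 FPKM) and Adcyap1r1 in WAT AKO (13.6 to 18.9 FPKM).

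Other Gs-coupled receptors of adipocytes give the scale of these levels. Adrb3, the beta-3 adrenoceptor, had 139.5 ± 33.3 FPKM in BAT controls and 121 ± 19.6 in BAT AKO libraries, while Adrb1 had 11.5 ± 0.932 and 13.2 ± 1.05 FPKM. Pth1r was therefore above Adrb1 in BAT controls (15.9 FPKM) and below it in BAT AKO libraries (6.40 FPKM), with separate ranges in both. In WAT, Tshr, the thyrotropin receptor, was at 22.5 ± 2.60 FPKM in controls and 15.7 ± 2.34 in AKO libraries. None of the receptors in this list was called between AKO and control, 7 of 9 being tested in BAT and 8 in WAT. Among controls, between depots, Adrb1 was higher in BAT by a log2 of 2.88, and Tshr and Mc2r, the corticotropin receptor, were lower, with log2 differences of -3.55 and -3.35.

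Proteins that bind, desensitise or recycle the receptor include Ramp2 and Ramp3, receptor activity-modifying proteins, the arrestins Arrb1 and Arrb2, the receptor kinases, the scaffolds NHERF1 and NHERF2 (listed as Slc9a3r1 and Slc9a3r2) and the retromer. All 14 of these genes were tested in both depots and none was called between AKO and control, with 6 of 14 at an unadjusted p under 0.05 in BAT and 5 of 14 in WAT (1942 of 14265 and 3597 of 15915 over all genes). Median log2 differences were -0.16 in BAT and -0.13 in WAT. Ramp2 was at 87.75, 87.4 and 105 CPM in WAT controls and at 54.5, 50.5 and 59.8 CPM in WAT AKO libraries, a log2 difference of -0.77 (SE 0.12, adjusted p 0.075 by edgeR) with no overlap. The endothelial marker sums given above also had their highest value in WAT control 3, as Ramp2 did. In BAT the log2 difference of Ramp2 was -0.22 (SE 0.11), with overlap. Ramp3 went the other way in WAT, with 0.153 to 0.823 CPM in controls and 1.86 to 3.13 CPM in AKO libraries (log2 2.46, SE 0.57, adjusted p 0.109 by edgeR, and called by DESeq2). Among WAT controls Ramp3 was highest in control 2, as the B lymphocyte marker sums given above were. The part of lymphocytes in the Ramp3 value was not tested. Grk5, a kinase that phosphorylates active receptors, had separate groups in both depots, with log2 differences of -0.55 in BAT and -0.60 in WAT and adjusted p of 0.311 and 0.094 by edgeR. In the depot comparison of controls 3 of the 14 were called higher in BAT and 3 lower (24.4% and 25.7% over all genes). Grk3 (2.61), Ramp3 (3.22) and Slc9a3r2 (1.35) were higher and Arrb2 (-1.13), Arrb1 (-0.76) and Vps35 (-0.34) lower.

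Downstream of the receptor, G protein subunits, adenylyl cyclases and phospholipase C beta genes were not called between AKO and control, with 16 of 18 tested in BAT and 17 in WAT. Gnas, the Gs alpha subunit gene, had 116 to 126 CPM in BAT AKO libraries and 79.6 to 132 CPM in BAT controls, with a log2 difference of 0.16 (SE 0.17). Among cyclases in BAT, Adcy9 had 23.4 to 34.95 CPM in controls and 38.5 to 46.7 CPM in AKO libraries (log2 0.61, SE 0.14, adjusted p 0.247 by edgeR), and Adcy4 had a log2 difference of -0.60 (SE 0.13, adjusted p 0.243). Their groups were separate. Across the depots of controls, 9 of 17 were called higher in BAT and 4 lower (24.4% and 25.7% over all genes). Gnas was higher by a log2 of 2.67 and Adcy3 by 1.98, while Adcy5 was lower (log2 -4.41), from 282 to 392 CPM in WAT controls to 13.9 to 17.7 CPM in BAT controls.

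The protein kinase A, Epac, Creb and salt-inducible kinase genes, 19 in all and all tested, gave no call between AKO and control, with median log2 differences of 0.06 in BAT and 0.00 in WAT. Prkaca, the main catalytic subunit, had 365 to 468 CPM in BAT controls and 436 to 499.5 CPM in BAT AKO libraries, with overlap. In WAT it had 193 to 260 CPM in controls and 142 to 172 CPM in AKO libraries, a log2 difference of -0.54 (SE 0.15, adjusted p 0.128 by edgeR) without overlap. For controls, between depots 5 of the 19 were called higher in BAT and 2 lower (24.4% and 25.7% over all genes), and Prkaca was higher by 0.92.

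Phosphodiesterases, which break down cAMP, had the highest median of the lists of more than 2 tested genes in BAT: 8 of 11 had positive log2 differences, with a median of 0.41 against 0.01 over all genes. None of the 11 was called, and 5 had an unadjusted p under 0.05 (1942 of 14265 over all genes). Pde7b had 13.8, 16.8 and 8.16 CPM in BAT controls and 25.1, 25.2 and 34.3 CPM in BAT AKO libraries, a log2 difference of 1.14 (SE 0.26) with an adjusted p of 0.243 by edgeR. Pde3b, the insulin-activated phosphodiesterase of adipocytes, had 142 to 194 CPM in BAT controls and 207 to 274 CPM in BAT AKO libraries (log2 0.53, SE 0.14, adjusted p 0.270). Both were separate between the groups, as were 8.35% of all genes tested in this direction, and both were called by DESeq2. In WAT the median was -0.14, with 3 of 11 positive and 1 at an unadjusted p under 0.05 (3597 of 15915 over all genes). Between the depots, in controls, Pde4a was higher in BAT by 2.61 and Pde4d by 1.59, and Pde7a was lower (log2 -3.00).

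Early genes induced by cAMP were tested in full, 15 in each depot, with no call between AKO and control and medians of 0.04 in BAT and -0.08 in WAT. Fosl2, an AP-1 subunit, had 48.2 to 62.9 CPM in BAT controls and 29.9 to 38.8 CPM in BAT AKO libraries (log2 -0.66, SE 0.13, adjusted p 0.225 by edgeR). Nr4a3, an orphan nuclear receptor, had 1.12 to 2.23 CPM in WAT controls and 5.08 to 7.45 CPM in WAT AKO libraries (log2 1.94, SE 0.30, adjusted p 0.075). These groups were separate in each case. Of 10 genes that respond to parathyroid hormone in bone and kidney, 2 passed the filter in each depot, and none was called. Igf1, a growth factor gene, had 127 to 181 CPM in WAT controls and 83.6 to 102 CPM in WAT AKO libraries (log2 -0.75, SE 0.16, adjusted p 0.098), and 9.95 to 15.3 CPM over both BAT groups. The other gene tested in WAT, Tnfsf11, the gene of the cytokine RANKL, had 24 counts over the controls, 22 of them in control 2, and 141 over the AKO libraries (log2 2.42, SE 1.05, adjusted p 0.232 by edgeR), with 0 counts in BAT.

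Thermogenic and lipolytic genes, only some of which cAMP induces in fat, were not called between AKO and control among the 12 tested in BAT and the 10 in WAT. In BAT, Ucp1, the uncoupling protein of brown fat, had 4339, 3711 and 3724 CPM in controls and 4438, 3707 and 4993 CPM in AKO libraries, with overlap and a log2 difference of 0.17 (SE 0.12). Ppargc1a, a coactivator of mitochondrial genes, had a log2 difference of 0.63 (SE 0.18, adjusted p 0.270 by edgeR) without overlap, and Dio2, the deiodinase that makes active thyroid hormone, one of -1.31 (SE 0.65) with overlap. In controls, between depots 8 of 12 were called higher in BAT and none lower (24.4% and 25.7% over all genes).

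Over all 121 pathway genes besides Pth1r, 97 were tested in BAT with 0 called, 23 at an unadjusted p under 0.05 (1942 of 14265 over all genes) and a median log2 difference of 0.06. In WAT 101 were tested with 0 called, 30 at an unadjusted p under 0.05 (3597 of 15915) and a median of -0.08. DESeq2 called 5 in BAT, namely Adcy4, Adcy9, Fosl2, Pde3b and Pde7b, and 17 in WAT, and limma voom called 0 in each. Between depots, 35 of 100 were called higher in BAT and 16 lower in controls (24.4% and 25.7% over all genes). In AKO libraries these were 46 of 103 and 24 of 103 (28.8% and 30.5% over all genes). On the log2(FPKM + 1) scale these counts were 23 and 29 in controls and 24 and 42 in AKO libraries, and the sign turned for 1 of the 35 and for 6 of the 46. The 1 was Crtc2, and the 6 were Atf1, Crem, Grk5, Lipe, Rapgef3 and Snx27.

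**Figure D4:**
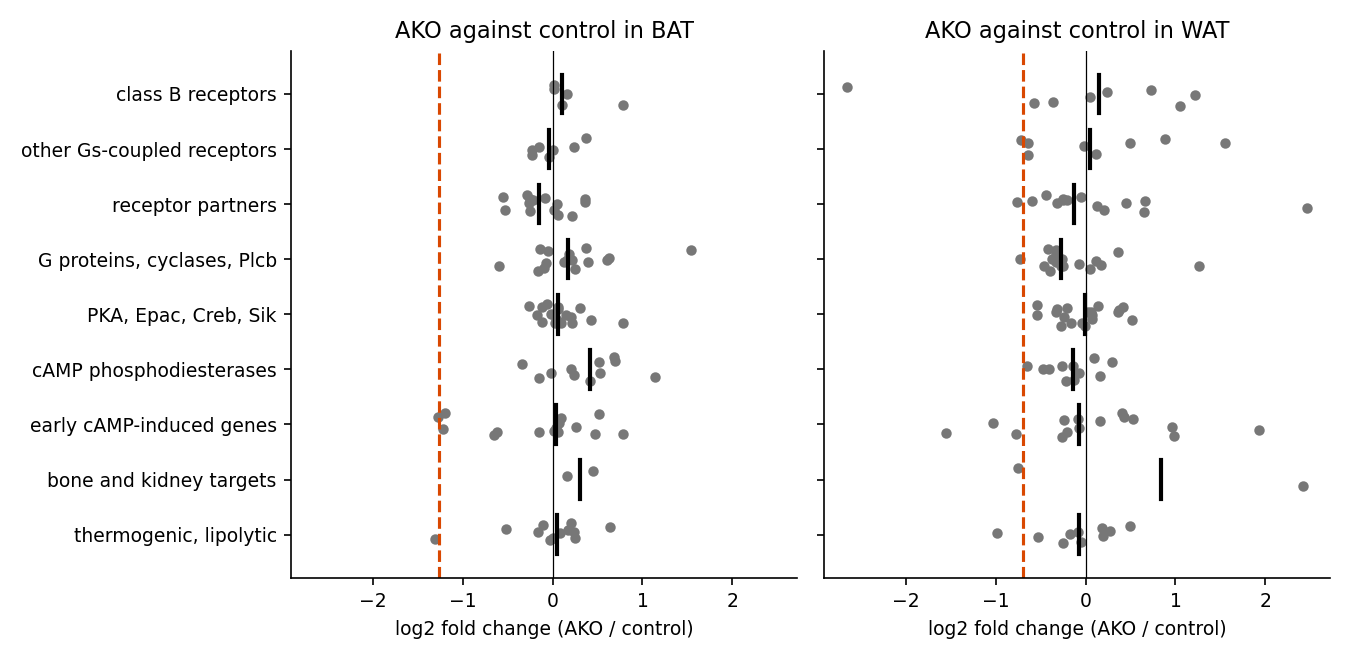
Log2 fold change of AKO over control for the tested genes of each pathway list in BAT (left) and WAT (right), one point per gene, with the list's median as a black bar and Pth1r as a dashed line (-1.27 in BAT, -0.70 in WAT). In BAT the phosphodiesterases have the median 0.41 and the other lists shown lie nearer to 0.

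Gene by gene, the levels most correlated with that of Pth1r over the 12 libraries were those of Tmbim4 (Pearson r 0.965), Trim3 (0.964), Psmc4 (0.963), Gm10734 (0.961) and Efnb1 (0.958), among 16390 genes compared on log2 CPM. These values are dominated by the depots and the genotype groups, and they leave out the size of a change. Tmbim4 had 751 to 1106 counts per library, against 166 to 781 for Pth1r. Its raw counts were lower in every BAT library (751 to 922) than in every WAT library (980 to 1106), so its match depends on the scaling. After each group's mean was subtracted, which leaves the differences between libraries of the same group, the genes most correlated with Pth1r were Plscr1 (0.960), Dnajc8 (0.950), Plcg1 (0.947), Gpr182 (0.940) and Fbxl20 (0.937). No gene was in both sets of 5. The libraries share depth and tissue makeup, and these correlations are a description.

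Along the chromosome, 28 other genes with a start within 1 Mb of that of Pth1r were tested in BAT and 27 in WAT, and none was called. Their median log2 difference was -0.13 in BAT, with 18 of 28 negative, and 0.18 in WAT, with 8 of 27 negative. The adjacent genes Nbeal2 and Ccdc12 had BAT differences of -0.35 (SE 0.08, adjusted p 0.247 by edgeR) and -0.02 (SE 0.08), and Als2cl one of -0.25 (SE 0.10). The overlapping muscle gene Myl3 differed by 2.36 (SE 1.53) in BAT, with 0 to 746 counts per library. No tested neighbour had a BAT difference as low as that of Pth1r, but Pth1r was chosen for its low value in this contrast.

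**Figure D5:**
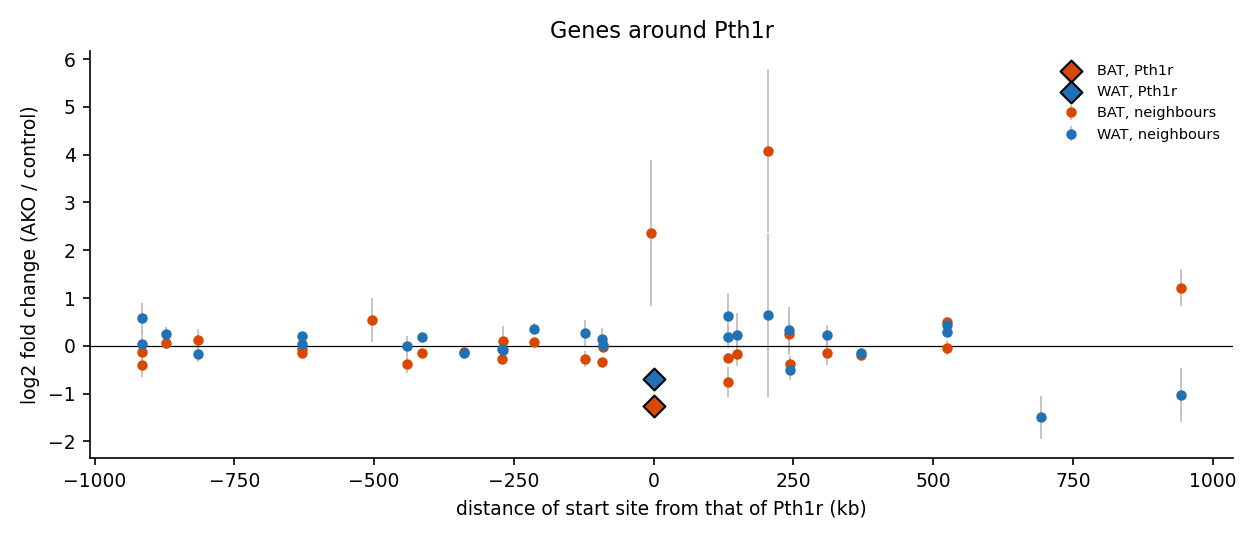
Log2 fold change of AKO over control for genes starting within 1 Mb of the Pth1r start, by distance in kb, in BAT and WAT; circles are neighbours with their SE and diamonds are Pth1r. In BAT the neighbour with the lowest value, Tmie, is at -0.75, against -1.27 for Pth1r, which was chosen by this contrast.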

How the data were processed

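Inguinal WAT and BAT of Mcu fl/fl and Mcu fl/fl AKO mice were measured by poly(A) RNA-seq, in 3 libraries per group, and grouped by the labels. The authors deposited a table of raw counts for 52550 genes and a table of FPKM values for the 31231 genes with a count. Bowtie2 2.2.3, HISAT2 2.1.0, HTSeq 0.6.0 and the build mm10 are named per the submitters' processing notes; no source used here gives the role of each, the annotation or the strandedness. The deposited FPKM matched counts divided by library total and a fixed gene length (relative deviation at most 9.74e-09 for counts of at least 20). Depth was 15692588 to 18967159 counts, and for Pth1r the counting error was 3.58% to 7.76% per library. Replicates differed by more than sampling noise (chi-square per degree of freedom 16.6 to 83.4).

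Genes passing filterByExpr (minimum count 10) were tested for each of 4 comparisons on its 6 libraries with edgeR 4.0.16 (glmQLFit and glmQLFTest, TMM scaling) in R 4.3.3, with Benjamini-Hochberg adjustment over all genes tested and a threshold of 0.05. The fit was tested on simulated data. Levels are CPM with TMM scaling over all 12 libraries, and FPKM served to compare genes. Alternatives were DESeq2 1.42.0 and limma 3.58.1 (voom), other scalings and filters, log2(FPKM + 1) and log2(FPKM + 0.1), all 12 libraries together, leaving out each library, leaving out the most muscle-rich library of each group, and a replicate block. Libraries of equal number deviated together between depots (r of 0.233 to 0.516 in controls and 0.136 to 0.676 in AKO), a hint from the data that numbers pair the depots. AKO number 3, however, correlated better with another number (0.43). The main tests used no pairing, and the replicate block was an alternative only. Exact permutation tests used scipy 1.17.1. Of 52550 identifiers, 52403 matched a symbol. Sequences are from RefSeq (GRCm38.p6). Pth1r and the gene lists were chosen with earlier results of these data known. Named genes were Pth1r, Mcu, the ligand and receptor list, up to 4 genes per pathway list by smallest p, the 5 most alike genes by each measure and the adjacent genes; Gipr, Sctr, Gnas in the AKO contrast, Ucp1, Dio2, Tmie and single marker genes were named after their values were seen.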

Additional observations from a re-analysis of the deposited data

Results flagged for a closer look

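Mc2r, the corticotropin receptor, had opposite directions in the 2 depots. It was lower in every WAT AKO library than in every WAT control (16.5 to 23.9 against 28.3 to 40.3 CPM, log2 difference -0.65) and higher in every BAT AKO library than in every BAT control (3.54 to 4.38 against 2.86 to 3.40 CPM, log2 difference 0.37). Separate groups are common, with 15.6% of all genes tested in WAT separate and lower in AKO, and 8.35% in BAT separate and higher. Neither Mc2r difference passed the test (adjusted p 0.154 and 0.402 by edgeR), and the difference between the depots was not tested.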

How the results depend on the processing

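Pth1r kept its direction in all 4 comparisons under every alternative run. In BAT the log2 difference between AKO and control was -1.31 to -1.12 over 11 alternatives, with -1.12 from leaving out the muscle-rich libraries, and -1.36 to -1.18 when single libraries were left out. The BAT call was less stable, with an adjusted p under 0.05 in 8 of these 11 alternatives and in 1 of 6 fits without a single library. By edgeR the adjusted p was 0.151 with the replicate block, 0.081 with all 12 libraries and 0.147 without the muscle-rich libraries. The BAT contrast chose the gene, so these p-values describe the settings and support nothing further. In WAT the log2 difference was -0.75 to -0.42 over the alternatives and -0.89 to -0.38 without single libraries, with no adjusted p under 0.05. Both depot comparisons passed under every alternative. Their log2 differences were 1.41 to 1.93 in controls and 0.63 to 1.41 in AKO libraries over 11 alternatives, lowest on the log2(FPKM + 1) scale. The counts of called genes depended far more on the settings, and the cause was not tested. For AKO against control in BAT, 11 genes became 33 without a filter, 261 with DESeq2, 1 with the replicate block, 2 without the muscle-rich libraries, and 0 to 95 when single libraries were left out, with 95 without BAT control 2. In WAT, 3 genes became 277 without a filter, 1590 with DESeq2, 1 with voom, 17 with log2(FPKM + 0.1), 12 with log2(FPKM + 1) and a mean FPKM of at least 1, 0 with the replicate block, 1030 with all 12 libraries, 0 without the muscle-rich libraries, and 1 to 1649 when single libraries were left out, with 1649 without WAT control 2. Between depots in controls, 7524 became 4763 without the muscle-rich libraries. Pathway genes called, a count added after seeing the data, went from 0 to 5 in BAT with DESeq2. In WAT they went from 0 to 6 without a filter, 17 with DESeq2, 14 with all 12 libraries, and 0 to 17 when single libraries were left out. Pthlh, followed after seeing the data, kept its direction in WAT, with log2 differences of 2.17 to 2.65 without single libraries and 1.03 to 2.44 otherwise.

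Numbers did not pair AKO with control libraries (correlations of -0.616 to 0.112 in BAT and -0.471 to 0.219 in WAT). With the replicate block the Pth1r difference was -1.27 in BAT and -0.65 in WAT (adjusted p 0.151 and 0.324 by edgeR). Between depots the paired fit gave 1.93 (adjusted p 0.00053) in controls and 1.34 (0.00023) in AKO libraries and changed no call on Pth1r. At a depth of 15692588 counts or more, genes such as Pthlh in BAT (9 and 17 counts per group) fell below the filter on low counts.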

Other observations

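Of the 11 genes called between AKO and control in BAT, 2 lie on chromosome 9, Pth1r and Rpl29, which starts 4.32 Mb away, while 5.58% of the 14265 genes tested lie on that chromosome. Pth1r was chosen by this contrast, so its place in the count carries no weight. Whether called genes gather on the chromosome was not tested. In WAT 1 of the 3 called genes lies there, against 5.59% of the genes tested.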
